A study of Mus musculus with 8 samples.

Results

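Between 4 and 16 h of 4-hydroxytamoxifen, thymic group 2 innate lymphoid cells (ILC2) that carried E47-ER raised the genes of galanin (Gal), the corepressor Cbfa2t3, cathepsin L (Ctsl), the T lineage factor Tcf7 and lymphotoxin beta (Ltb), and lowered those of CD24 (Cd24a), the metallothioneins Mt1 and Mt2 and the factors Gfi1 and Irf4. The comparison covered 4 of the 8 libraries of the study, chosen by their labels: 2 E47-ER libraries at 16 h against 2 E47-ER libraries at 4 h. The 4 libraries of cells with GFP alone (2 at each time) were used to see whether a change over the same hours was also found without E47-ER. With all 8 libraries, 0 of 13644 genes passed the test of the difference in time change between E47-ER and GFP cells.

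ILC2 are lymphocytes without a rearranged antigen receptor that secrete type 2 cytokines such as IL-5 and IL-13 when IL-25 or IL-33 reaches them, and they depend on Gata3, Rora, Bcl11b and Id2. E proteins are basic helix-loop-helix transcription factors that bind E-box motifs and drive T and B lymphocyte development. Id proteins pair with E proteins and keep them off DNA, so that innate lymphoid cells arise where Id activity is high. E47 is a product of Tcf3, and in E47-ER it is fused to the estrogen receptor, whose ligand-binding part holds the protein inactive until 4-hydroxytamoxifen is given.

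The ILC2 were thymic cells of plck-Id1 mice on the C57BL/6 background, a transgenic line whose proximal Lck promoter drives the inhibitor Id1. The MIGR1 retrovirus brought in GFP alone or GFP with E47-ER. GFP-positive cells were sorted and grown on in IL-25, IL-33 and IL-7, and the drug acted for 4 or 16 h before total RNA was taken. The transgene, the E47-ER construct, the cytokines and the drug were thus shared by both E47-ER groups, which differed in the hours of treatment. No E47-ER library without the drug was analysed here, so a level at 4 h already held any change of the first hours and any effect of the construct before treatment. The labels do not say whether the 2 libraries of a group came from separate mice or cultures, so the p values reflect no more than the difference between such libraries, part or all of which may be technical.

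The E47-ER libraries held 15212699 and 13761761 counts at 4 h and 14518308 and 16982013 at 16 h. Replicates differed by a median of 0.126 (4 h) and 0.121 (16 h) on the absolute log2 scale, and mitochondrially encoded genes took 1.23 to 1.71% of counts. The summed level of 15 ILC2 markers ran from 24583 to 24605 CPM (counts scaled to each library's total) at 4 h and from 23037 to 23233 at 16 h, and all 15 were present. Of the alpha beta T cell markers, Cd4, Cd8a, Cd8b1 and Cd5 stayed under 1 CPM, while the sum of the 9 went from between 97.9 and 100.2 CPM at 4 h to between 146 and 159 CPM at 16 h, mostly through Trbc2. The B cell markers summed to at most 8.82 CPM, mostly Cd79b, the myeloid markers to at most 33.2 CPM with C1qa at 0 and the erythroid markers to under 1 CPM. The dendritic cell markers summed to 78.4 to 95.6 CPM at 4 h and 79.3 to 85.6 CPM at 16 h, mostly Xcr1 and H2-Ab1. Xcr1 was lower at 16 h (44.4 and 43.2 CPM, after 50.7 and 60.7), and Clec9a and Siglech were at 0. The ILC3 markers summed to 74.9 to 80.4 CPM at 4 h and 76.7 to 80.0 CPM at 16 h, mostly Il22. The 8 NK and ILC1 markers summed to between 5457 and 8015 CPM at 4 h and between 6627 and 8118 CPM at 16 h, nearly all of it Gzma (5413 to 8054 CPM over the 4 libraries). Of these 8, Prf1 was higher at 16 h (0.33, adjusted p = 0.0455, which rose to between 0.0591 and 0.493 without replicate 1 or 2 at 4 h or replicate 2 at 16 h), Klrd1 and Klrk1 were present, and Klrb1c and Ncr1 were at 0. Of the 6 thymic epithelium markers only Epcam was tested, and it was higher at 16 h (log2 fold change 0.83), with Foxn1 at 0. In bulk RNA, more cells of a type and more RNA per cell cannot be told apart, and the part of other cells in any result was not tested.

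Of 13075 genes tested, 957 were called at an adjusted p under 0.05, 552 higher and 405 lower at 16 h. That is 7.32% of the genes tested, 4.22% higher and 3.1% lower. Adjusted p values here and below come from edgeR's quasi-likelihood test on the 4 E47-ER libraries with Benjamini-Hochberg adjustment over all tested genes, and "rose" and "fell" are used only of genes that passed it. In all 957, both libraries of one time lay above both of the other. Most changes were moderate, with a median size of 0.46 log2 units among the genes that rose and 0.42 among those that fell, and 82 genes rose and 24 fell by at least 1 log2 unit. The median over all tested genes was 0.00083. DESeq2 called 388 genes. A fit without 1 E47-ER library keeps 1 library at that time, so its spread rests on the pair of the other time. A call kept in such a fit is therefore no measure of stability. When the GFP libraries also informed the estimate of spread, the call held for Gal and Cbfa2t3 alone of all genes with all 8 libraries, and for 435 genes without replicate 2 of GFP at 16 h, the library with the lowest total of the study (8813782 counts).

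**Figure D1:**
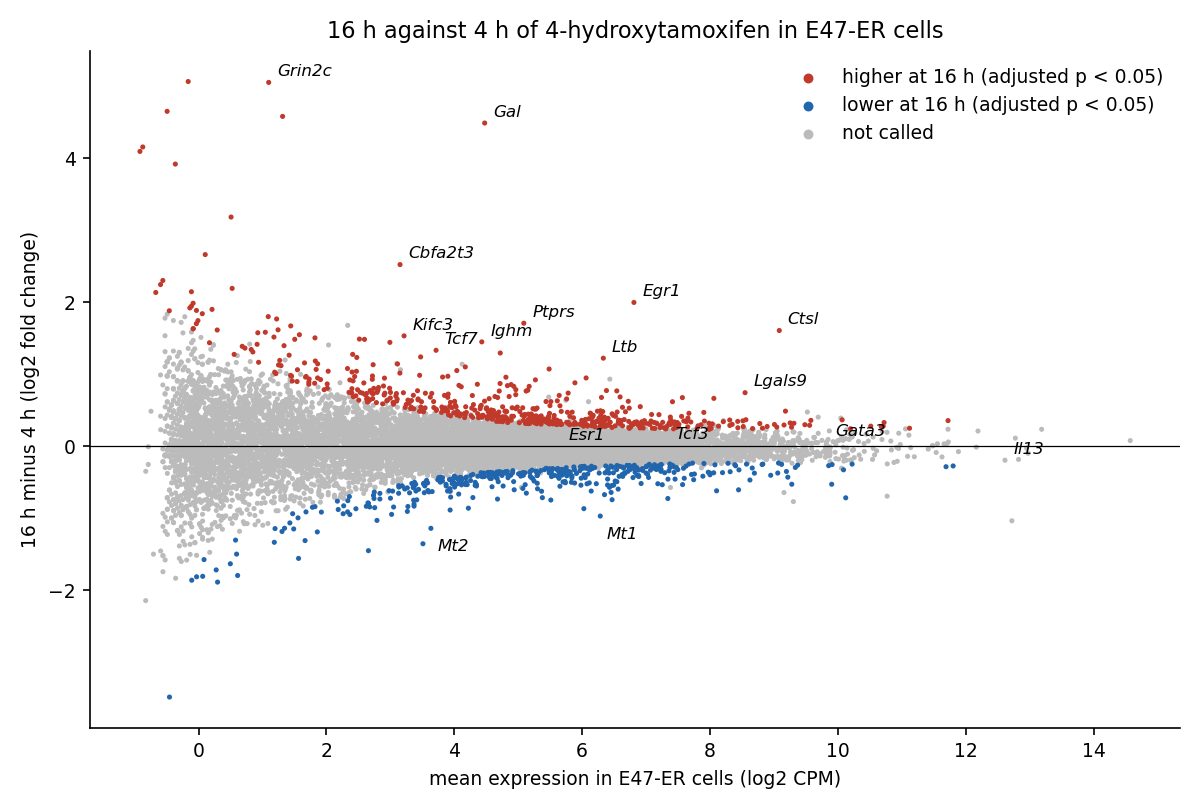
Log2 fold change from 4 to 16 h in E47-ER cells (y axis) against mean expression in log2 CPM (x axis), 1 point per tested gene, red for the 552 genes that rose and blue for the 405 that fell. Gal, Cbfa2t3, Egr1, Ptprs and Ctsl stand clear above the other genes of their abundance, while Esr1, Tcf3 and Gata3 lie near 0.

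The genes that report the construct did not differ detectably between the times. Esr1 (ENSMUSG00000019768), which the fusion protein's receptor part can add reads to, stood at 54.0 and 46.1 CPM at 4 h and at 45.2 and 55.6 CPM at 16 h, a log2 fold change of 0.00 (SE 0.10, adjusted p = 0.999), against 0.794 CPM or less in every GFP library. Tcf3, which encodes E47 itself, stood at 155 and 165 CPM and then at 151 and 173 CPM (0.01, SE 0.08, adjusted p = 0.961). The ranges of both genes overlapped between the times. Reads of the construct and of the cells' own genes cannot be separated in these counts. Id1, whose reads can include the transgene, had 68.2 and 60.5 CPM at 4 h and 84.0 and 69.0 CPM at 16 h (0.24, SE 0.09), which did not pass (adjusted p = 0.139).

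Upstream sequences of 4 genes are shown for the E-box, the motif that E proteins bind. Each line gives the 250 bases before the RefSeq transcription start (GRCm38.p6), 5′ to 3′ on the gene's strand, in lower case with every CANNTG in capitals. They are shown because Gal and Cbfa2t3 kept their calls with all 8 libraries in the fit, Ltb led the TNF family genes that rose, and Nupr1 fell.
Gal, chr19:3414545-3414794, minus strand: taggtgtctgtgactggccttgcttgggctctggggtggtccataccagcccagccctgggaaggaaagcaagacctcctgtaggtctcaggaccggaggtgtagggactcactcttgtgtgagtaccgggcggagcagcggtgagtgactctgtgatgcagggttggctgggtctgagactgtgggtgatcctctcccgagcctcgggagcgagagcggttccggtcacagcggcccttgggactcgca
Cbfa2t3, chr8:122699110-122699359, minus strand: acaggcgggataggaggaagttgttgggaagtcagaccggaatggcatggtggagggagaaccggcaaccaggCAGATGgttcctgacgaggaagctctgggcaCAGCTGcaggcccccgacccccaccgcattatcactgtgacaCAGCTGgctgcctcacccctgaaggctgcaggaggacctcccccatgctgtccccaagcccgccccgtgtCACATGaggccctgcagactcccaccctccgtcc
Ltb, chr17:35194257-35194506, plus strand: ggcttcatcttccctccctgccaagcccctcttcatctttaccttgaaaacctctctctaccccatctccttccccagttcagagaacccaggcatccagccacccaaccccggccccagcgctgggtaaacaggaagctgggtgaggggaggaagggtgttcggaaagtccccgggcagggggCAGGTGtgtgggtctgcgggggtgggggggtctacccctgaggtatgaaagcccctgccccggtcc
Nupr1, chr7:126625471-126625720, minus strand: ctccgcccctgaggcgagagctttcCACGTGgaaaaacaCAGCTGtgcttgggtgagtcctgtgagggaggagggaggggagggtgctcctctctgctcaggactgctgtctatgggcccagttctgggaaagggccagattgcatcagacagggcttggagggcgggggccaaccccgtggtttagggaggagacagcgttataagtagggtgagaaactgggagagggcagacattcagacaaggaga
The Gal window held no CANNTG. The window of Cbfa2t3, the farther upstream of its 2 starts in the table, held 4. Its other window, which is not printed, held 1, and that of Ltb held 1. The window of Nupr1, which fell, held 2. CANNTG reads the same on both strands. Across genes, 61.3% of the 574 windows of genes that rose and 58.2% of the 364 windows of genes that fell held at least 1 CANNTG, against 57.5% of the windows of all tested genes and 66.2% of all promoters in the RefSeq table. The form CAGCTG stood in 13.8, 12.6, 11.6 and 13.0% of these sets, in the same order. Of the 552 genes that rose 415 matched the table, and 296 of the 405 that fell. A match is a description of these letters and not a bound site.

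The E protein and Id network was higher at 16 h in 5 of its 11 tested members, with none lower, where 4.22% of all tested genes rose. This list and those below were chosen with earlier results of these data known. A share above that of all tested genes is thus no test of a list. The network had a median log2 fold change of 0.28. It had 3 members higher without replicate 2 at 4 h, 2 with 7 libraries in the fit and 1 with all 8. Its leader was Cbfa2t3 (ENSMUSG00000006362; chromosome 8, 122625141 to 122699109), a corepressor that works with E proteins. It had 2.30 and 2.76 CPM at 4 h and 16.3 and 13.2 CPM at 16 h, a rise of 2.53 log2 units (SE 0.20, adjusted p = 1.86e-09), against 0.276 CPM or less in every GFP library. Snai3, a Snail family zinc finger gene, went from 11.6 and 10.5 to 18.6 and 18.3 CPM (0.73, SE 0.13, adjusted p = 0.000834). Both libraries at 16 h lay above both at 4 h for both genes.

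The inhibitors of E proteins were among the members that rose. Id3 went from 47.1 and 35.2 to 88.4 and 65.2 CPM (0.88, SE 0.18, adjusted p = 0.0399). Id2, the inhibitor that ILC2 development needs, went from 1528 and 1480.5 to 1906 and 1777 CPM (0.28, SE 0.07, adjusted p = 0.0216). Id2 lost its call without replicate 2 at 4 h (adjusted p = 0.0617) and without replicate 1 at 16 h (0.098). Tcf12, which encodes the E protein HEB, rose from 70.2 and 60.0 to 83.6 and 82.6 CPM (0.34, SE 0.09, adjusted p = 0.0175) and lost its call without replicate 2 at 4 h (0.227) and without replicate 2 at 16 h (0.0818). Tcf4, the gene of the E protein E2-2, had 0.16 (adjusted p = 0.38).

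Among genes with a mean log2 CPM of at least 3, the largest rise was that of Gal (ENSMUSG00000024907; chromosome 19, 3409915 to 3414544), which encodes the neuropeptide galanin. It stood at 1.25 and 2.47 CPM at 4 h and at 45.9 and 37.8 CPM at 16 h, a rise of 4.49 log2 units (SE 0.19, adjusted p = 2.37e-14) or 22.5-fold. The GFP libraries held at most 0.414 CPM. Among 12 tested neuropeptide and receptor genes, Nmur1, the receptor through which neuromedin U acts on ILC2, rose from 174 and 172 to 225 and 233 CPM (0.39, SE 0.07, adjusted p = 0.00128). The other 10 did not pass, where 4.22% of all tested genes rose. Nmur1 did not keep its call when GFP libraries were in the fit, with or without replicate 2 of GFP at 16 h.

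Ctsl (ENSMUSG00000021477; chromosome 13, 64359337 to 64370890), the lysosomal protease cathepsin L, was already at 269 and 263 CPM at 4 h and reached 846 and 792 CPM at 16 h, a rise of 1.61 log2 units (SE 0.08, adjusted p = 2.37e-14). GFP cells held 26.0 to 48.3 CPM at both times. Of 19 cathepsin and lysosome genes 4 rose and 1 fell, where 4.22% and 3.1% of all tested genes did, with a list median of -0.11. The other 3 that rose were the tetraspanin gene Cd63 (0.95, adjusted p = 7.22e-08), Ctse (0.92, adjusted p = 0.0112) and Ctsc (0.33, adjusted p = 0.0116). Ctse and Ctsc lost their calls without replicate 2 at 4 h (adjusted p = 0.0792 and 0.0811) and without replicate 2 at 16 h (0.153 and 0.149).

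Ptprs, the gene of a receptor tyrosine phosphatase (ENSMUSG00000013236; chromosome 17, 56412426 to 56476483), went from 16.6 and 14.6 to 52.3 and 51.0 CPM (1.71, SE 0.11, adjusted p = 9.96e-12). At 4 h it lay below the GFP libraries of that time, at 18.6 and 18.3 CPM, and at 16 h above those of that time, at 19.6 and 5.11 CPM. Lgals9, which encodes galectin 9, rose from 292 and 264 to 495 and 445 CPM (0.75, SE 0.08, adjusted p = 4.59e-07). Lgals3 rose from 432 and 526 to 643 and 715 CPM (0.49, SE 0.09, adjusted p = 0.00175). The other 6 galectin genes tested did not pass, where 4.22% of all tested genes rose.

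The remaining genes with the largest rises were Kifc3, a kinesin motor gene (1.53, SE 0.17), Ighm, the immunoglobulin mu constant gene (1.45, SE 0.12), the laminin receptor gene Itga7 (1.30, SE 0.11), Cd7 (1.24, SE 0.16) and Wnt10b, a Wnt ligand gene (1.14, SE 0.18). Their adjusted p values ran up to 0.000111. Ighm went from 10.8 and 11.8 to 30.3 and 32.0 CPM while, of the 7 B cell markers, Cd79b stood at 7.76 and 6.47 CPM and then at 7.85 and 7.54 CPM and the other 6 stayed under 1 CPM in every E47-ER library.

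**Figure D2:**
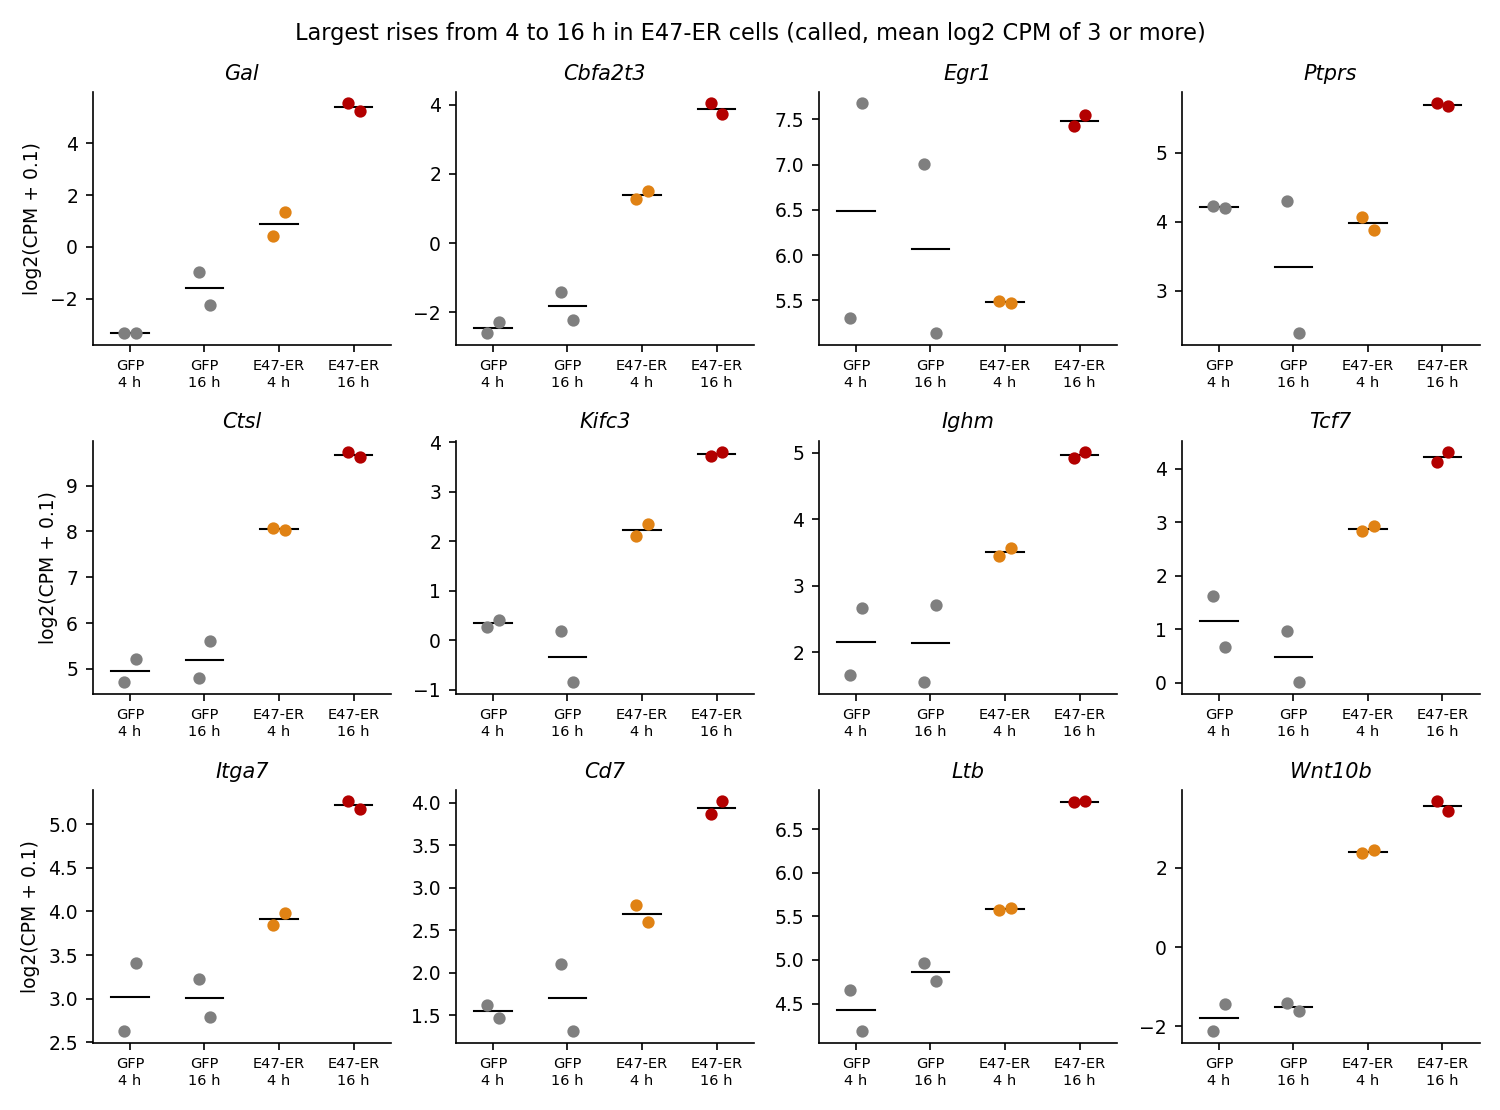
Log2(CPM + 0.1) in each library of GFP and E47-ER cells at 4 and 16 h for the 12 genes with the largest rise, 1 point per library and a line at the mean. For each gene both E47-ER libraries at 16 h lie above both at 4 h, and for Egr1 the GFP libraries spread over the same range.

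Some of the largest ratios belonged to genes near the limit of detection. Grin2c, an NMDA receptor subunit gene, had 1 and 2 counts at 4 h and 40 and 79 at 16 h, a ratio of 36.5 (95% exact interval 12.2 to 179). Dntt, which encodes the terminal transferase of lymphocyte progenitors, had 0 and 1 counts and then 27 and 18 (ratio 41.4, 7.06 to 1671). Cxcr5, a chemokine receptor gene, had 0 and 1 counts and then 14 and 20 (ratio 31.3, 5.25 to 1271). These intervals cover counting error only. As the sources used here do not say whether strand was used in counting, overlapping genes are uncertain: Cxcr5 overlaps Bcl9l on the other strand, which also rose (0.53, adjusted p = 0.00175). The other 2 genes of this kind, Ifi214 and Sorcs2, had 1 count at 4 h in all and 24 and 23 at 16 h. Each lost its call when 1 library at 4 h was left out (adjusted p = 0.0706 for Ifi214 without replicate 2 and 0.117 for Sorcs2 without replicate 1), and the count filter removed Ifi214 from 1 and Sorcs2 from 2 of the 4 such fits.

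T lineage genes moved in both directions. Tcf7 (ENSMUSG00000000782; chromosome 11, 52252371 to 52283014), which encodes TCF-1, rose from 7.03 and 7.48 to 17.2 and 19.6 CPM (1.33, SE 0.15, adjusted p = 1.05e-06), above the 0.908 to 2.98 CPM of the GFP libraries. Of 25 T lineage transcription factor genes, Tcf7 and Egr1 rose, and Myb (-0.62, adjusted p = 0.000482), Satb1 (-0.25, 0.0383) and Ikzf2 (-0.31, 0.038) fell. The list median was 0.10, and of all tested genes 4.22% rose and 3.1% fell. Ikzf2 lost its call in each fit that left out 1 of the 4 libraries (adjusted p from 0.0647 to 0.218), and Satb1 lost it without replicate 1 or 2 at 4 h (0.0749 and 0.0758) and without replicate 1 at 16 h (0.231). Ptcra had 2 counts over the 4 E47-ER libraries and Rag1 and Rag2 had 0.

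Of 21 genes of CD3 chains and T cell receptor signalling, 7 rose and 1 fell, where 4.22% of all tested genes rose, and the list median was 0.32. Lck, the kinase that starts receptor signalling, went from 17.6 and 19.9 to 35.1 and 38.2 CPM (0.96, SE 0.11, adjusted p = 1.85e-06). Whether the transgene, which uses an Lck promoter, adds reads to Lck was not tested. Trbc2 went from 61.7 and 60.1 to 114 and 96.1 CPM (0.77, SE 0.09) and Trbc1 from 18.1 and 17.5 to 29.6 and 27.3 CPM (0.66, SE 0.11). Trbc1 and Trbc2 are near-identical constant segments of the T cell receptor beta gene, so reads may have been split between them. Trdc (0.34), Cd247 (0.33), Themis (0.57) and Dntt also rose, and Lat, a signalling adaptor gene, fell (-0.29, adjusted p = 0.0388). Trac, the alpha constant gene, stood at 5.26 and 3.56 CPM and then at 4.55 and 4.00 CPM. Cd247 and Themis lost their calls without replicate 2 at 16 h (adjusted p = 0.153 and 0.245), Cd247 also without replicate 1 at 4 h (0.148) and Themis without replicate 2 at 4 h (0.232). Lat kept its call only when replicate 1 at 4 h was the library left out (adjusted p from 0.0651 to 0.453 otherwise). Across these fits 5 to 9 members rose.

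Several genes of the TNF family rose. Ltb, which encodes the membrane anchor of lymphotoxin, went from 47.4 and 48.1 to 112 and 113 CPM (1.23, SE 0.09, adjusted p = 1.36e-10). Cd27, a costimulatory receptor gene, went from 9.07 and 11.9 to 21.6 and 22.2 CPM (1.05, SE 0.14, adjusted p = 1.31e-05). It overlaps Vamp1 on the other strand, which had -0.09 (adjusted p = 0.691). Tnfsf14, which encodes the ligand LIGHT, went from 26.2 and 25.4 to 46.1 and 43.3 CPM (0.78, SE 0.10, adjusted p = 8.2e-06). Of the 24 members tested 6 rose and 2 fell, where 4.22% and 3.1% of all tested genes did, and the list median was -0.05; without replicate 2 at 16 h, 3 rose and none fell. Tnfrsf21 (0.52) and Tnf (0.51) passed with all 4 libraries but not without replicate 2 at 16 h (adjusted p = 0.0605 and 0.0789).

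Most genes of the ILC2 lists did not pass, though a larger share of each list was called than the 7.32% of all tested genes. Of all tested genes 4.22% rose and 3.1% fell. Of 20 ILC2 transcription factor genes Tcf7 and Id2 rose and Gfi1 and Irf4 fell, 25 cytokine receptor genes gave 1 rise and 3 falls, and 26 cytokine and effector genes gave 2 of each, with list medians of -0.02, -0.04 and -0.14. With 1 library left out, receptor falls numbered 4 without replicate 1 at 4 h and 1 in each other fit. For cytokines and effectors there were 1 rise and 5 falls without replicate 1 at 4 h, no rise and 1 fall without replicate 2 at 16 h, and 4 rises and 2 falls in either other fit.  Gfi1, a zinc finger repressor that ILC2 need, fell from 110 and 103 to 71.4 and 66.0 CPM (-0.64, SE 0.08, adjusted p = 1.14e-05). Irf4 fell from 123 and 97.4 to 71.4 and 61.7 CPM (-0.74, SE 0.10, adjusted p = 1.98e-05). Irf4 did not keep its call when GFP libraries were in the fit, with or without replicate 2 of GFP at 16 h.

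Of the 15 ILC2 markers Thy1 and Id2 rose and Il2ra fell. The rise of Thy1 was small (0.29, adjusted p = 0.014). It did not keep its call when GFP libraries were in the fit, with or without replicate 2 of GFP at 16 h. Several other genes that define ILC2 did not pass. Gata3 had 889 and 875 CPM at 4 h and 913 and 941 CPM at 16 h (0.06, SE 0.07, adjusted p = 0.687), Rora had 0.19 (adjusted p = 0.157) and Bcl11b 0.18 (0.152). The IL-33 receptor gene Il1rl1 had 1996 and 2159 CPM and then 1719 and 1909.8 CPM (-0.21, SE 0.08, adjusted p = 0.118), and the IL-25 receptor gene Il17rb had 0.25 (0.346). Il5 stood at 3787 and 3931 CPM and then at 3751 and 3649 CPM (-0.07, SE 0.08, adjusted p = 0.621). Il13 stood at 6534 and 6764 CPM and then at 5791 and 5948 CPM (-0.19, SE 0.08, adjusted p = 0.129). For Il5 and Il13 both later libraries lay below both earlier ones, but by an amount that the test did not separate from the spread.

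Among cytokine receptors, Ifngr1, a chain of the interferon gamma receptor, rose from 132 and 135 to 199 and 215 CPM (0.62, SE 0.08, adjusted p = 6.54e-06). Il2ra, the high-affinity chain of the IL-2 receptor, fell from 3859 and 3372 to 3009.7 and 2979 CPM (-0.28, SE 0.08, adjusted p = 0.0244). The fall of Il2ra did not pass without replicate 1 at 4 h (adjusted p = 0.141) or without replicate 2 at 16 h (0.0794). The signal transducer gene Stat5a, which overlaps Stat3 on the other strand (-0.22, adjusted p = 0.0726), fell by 0.50 (SE 0.09, adjusted p = 0.000747) and Stat4 rose by 0.68 (SE 0.12, adjusted p = 0.000735), from 17.5 and 21.4 to 28.4 and 34.0 CPM. Kit, the stem cell factor receptor gene, fell from 211 and 236 to 136 and 175 CPM (-0.53, adjusted p = 0.0104). The gene of its ligand, Kitl, fell from 9.86 and 11.3 to 5.37 and 5.65 CPM (-0.95, SE 0.18, adjusted p = 0.00117).

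Cd24a (ENSMUSG00000047139; chromosome 10, 43578284 to 43584265), a surface glycoprotein gene of immature lymphocytes, fell from 85.8 and 81.7 to 50.4 and 42.5 CPM (-0.87, SE 0.09, adjusted p = 7.27e-07), against 119 to 133 CPM in the GFP libraries. The metal-binding metallothionein genes fell together. Mt2 went from 16.2 and 17.7 to 7.37 and 8.13 CPM (-1.14, SE 0.15, adjusted p = 9.9e-06) and its neighbour Mt1 from 88.9 and 116 to 51.1 and 54.6 CPM (-0.97, SE 0.11, adjusted p = 3.02e-05). Their GFP libraries at 16 h lay far apart, at 98.0 and 341 CPM for Mt1.

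Nupr1, a stress-induced chromatin protein gene (ENSMUSG00000030717; chromosome 7, 126623249 to 126630861), fell from 94.4 and 105 to 66.1 and 60.2 CPM (-0.67, SE 0.09, adjusted p = 1.36e-05), below the 176 to 311 CPM of the GFP libraries. It was 1 of 5 of the 30 ATF4 and amino acid supply genes that fell (Nupr1, Slc7a5, Ddit4, Ddit3 and Slc38a2), where 3.1% of all tested genes fell. Vldlr rose, where 4.22% of all tested genes did, and the list median was -0.07. Leaving out 1 library gave 2 to 4 falls in the list. Slc7a5 did not pass without replicate 2 at 16 h (adjusted p = 0.0518), Ddit4 without replicate 2 at 4 h (0.0812), and Vldlr without replicate 1 at 4 h (0.0707) or replicate 2 at 16 h (0.0745). Ddit3 and Slc38a2 each failed in 3 of the 4 fits, both at 16 h with either library left out, Ddit3 also without replicate 2 and Slc38a2 without replicate 1 at 4 h (adjusted p from 0.0759 to 0.201). Other genes among the largest falls were the glutamate transporter gene Slc17a8 (-0.88), the adenylyl cyclase gene Adcy4 (-0.90), the ephrin receptor gene Epha5 (-0.84) and Nab2, a corepressor of EGR factors (-0.75). Nab2 overlaps Stat6 on the other strand, which had -0.02 (adjusted p = 0.924). The call of Nab2 was not kept with GFP libraries in the fit, with or without replicate 2 of GFP at 16 h.

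**Figure D3:**
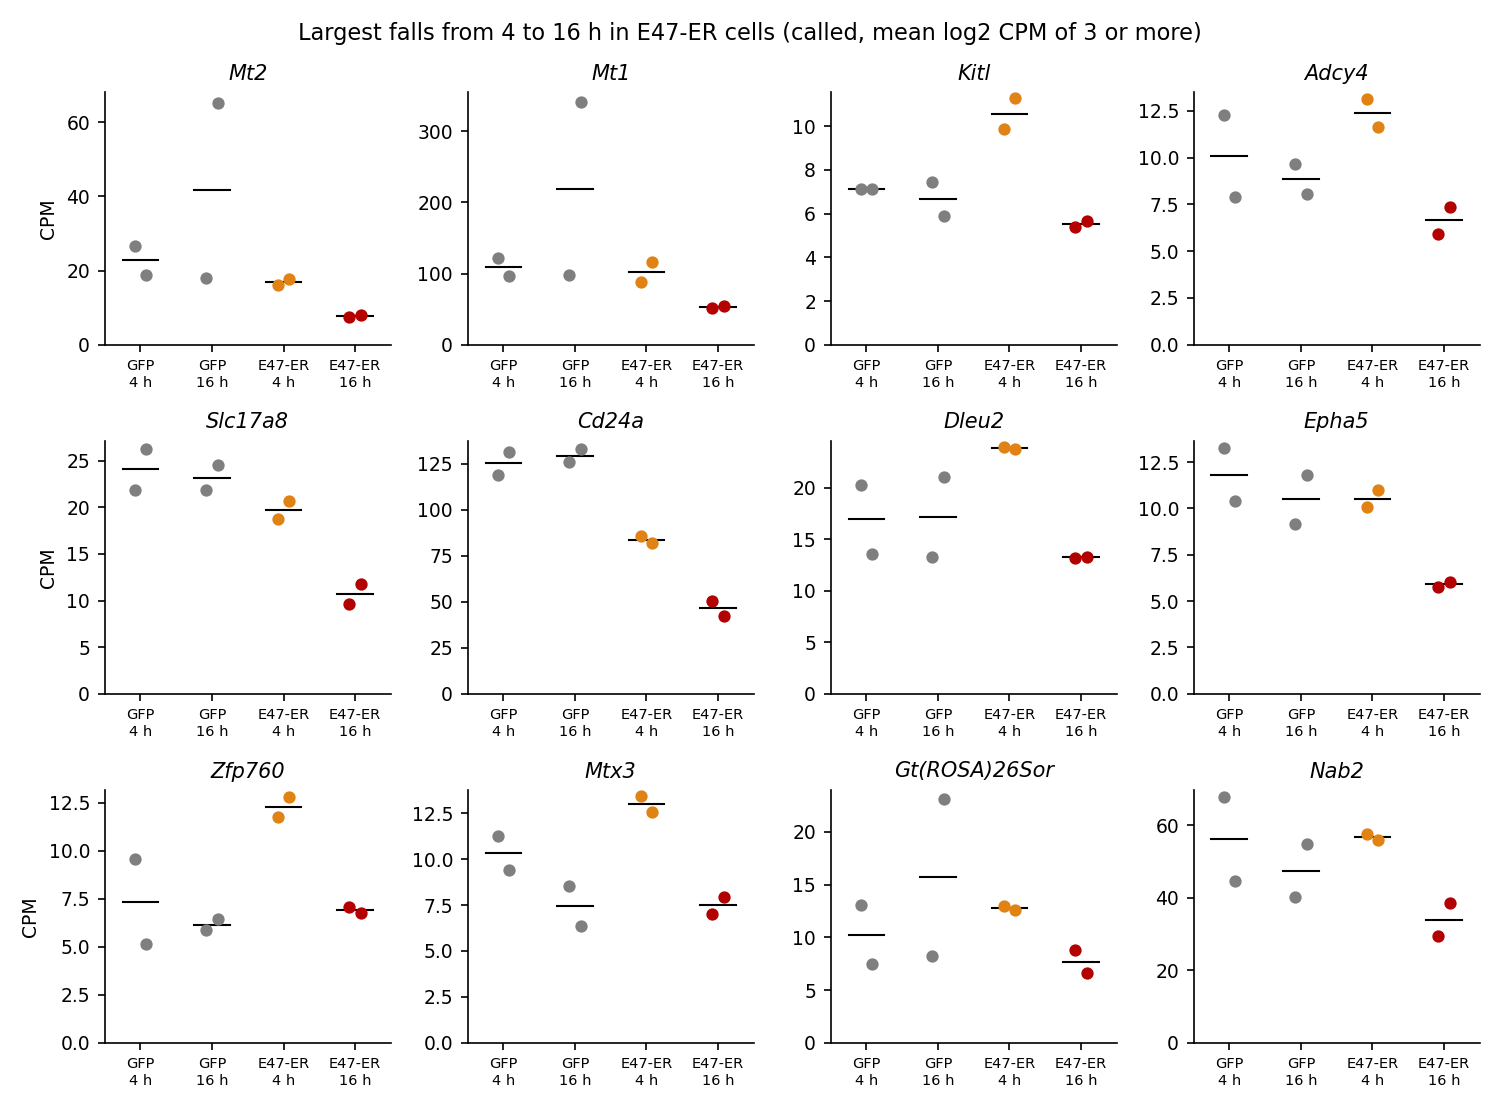
CPM in each library for the 12 genes with the largest fall, 1 point per library and a line at the mean, with the y axis from 0. Both E47-ER libraries at 16 h lie below both at 4 h for each gene, and for Cd24a and Slc17a8 they also lie below every GFP library.

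Immediate early and AP-1 genes rose in 11 of 28 members, where 4.22% of all tested genes rose, with none lower and a median of 0.31. Egr1 (ENSMUSG00000038418), a zinc finger factor induced by growth signals, went from 44.8 and 44.1 to 172 and 187 CPM (2.00, SE 0.08, adjusted p = 3.38e-15). Fos went from 5.0 and 3.20 to 11.9 and 10.8 CPM (1.44, SE 0.20), Ier2 from 74.1 and 90.5 to 125 and 131 CPM (0.63, SE 0.09) and Myc from 70.7 and 57.8 to 96.7 and 86.0 CPM (0.49, SE 0.09). The GFP libraries varied as widely without E47-ER: Egr1 stood at 39.3 and 204 CPM at 4 h and at 128 and 35.1 CPM at 16 h. With the GFP libraries in the fit but without replicate 2 of GFP at 16 h, Egr1, Fos and Ier2 lost their calls and 3 members were called. With 1 E47-ER library left out 6 (without replicate 1 at 4 h) to 12 members rose.

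Notch pathway genes had 3 of 21 members higher and none lower, where 4.22% of all tested genes rose, with a median of -0.02. They were Nrarp, a feedback inhibitor (5.46 and 4.36 to 8.47 and 9.01 CPM, 0.82, adjusted p = 0.00765), Hes1, a target repressor (0.50, adjusted p = 0.0127), and Maml3, a coactivator (0.53, adjusted p = 0.017). DESeq2 called none of the list. Nrarp did not pass without replicate 2 at 16 h (adjusted p = 0.0679), Hes1 without replicate 1 at 4 h (0.141), and Maml3 without either of these (0.195 and 0.1). Of 17 TGF-beta pathway genes, Tgfb3 (0.54, adjusted p = 0.00136), Lrrc32, whose product anchors latent TGF-beta (0.55, adjusted p = 0.00139), and Tgfbr2 (0.32, adjusted p = 0.0113) rose and Itgb8 fell (-0.48, adjusted p = 0.00338), against the same 4.22% and 3.1%. Without replicate 2 at 16 h the adjusted p was 0.0501 for Lrrc32, 0.188 for Tgfbr2 and 0.0989 for Itgb8.

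The list counts of this paragraph stand against 4.22% of all tested genes that rose and 3.1% that fell. Among 22 costimulatory and inhibitory receptor genes, Vsir, which encodes the inhibitory receptor VISTA, rose from 138 and 152 to 231 and 237 CPM (0.68, SE 0.08, adjusted p = 2.13e-06). Havcr2, which encodes TIM-3, fell from 114 and 112 to 80.5 and 89.9 CPM (-0.42, SE 0.08, adjusted p = 0.00215). In all 4 of these genes rose and 2 fell, and without replicate 2 at 16 h 1 rose. Of 21 chemokine receptor and migration genes 2 rose and 1 fell, and of 22 integrin and adhesion genes 3 rose and 1 fell, of which lists 1 gene each rose without replicate 2 at 16 h. Crispld2, a secreted protein gene, rose from 71.1 and 65.5 to 118 and 117 CPM (0.77, SE 0.08), and Cdk20, a kinase gene near Ctsl, from 14.3 and 14.8 to 25.5 and 22.4 CPM (0.71, SE 0.12). Spsb1 (0.06, adjusted p = 0.751), St8sia1 (0.22, 0.37), Nlrp3 (0.23, 0.338) and Zbtb32 (-0.27, 0.175) did not pass.

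Genes of ribosome biogenesis, which make and assemble ribosomal subunits in the nucleolus, had a negative log2 fold change in 36 of 36 members, with a median of -0.23. Of these 10 fell and none rose, where 3.1% of all tested genes fell. Rrp12, a subunit export factor gene, went from 43.8 and 41.0 to 30.3 and 24.4 CPM (-0.65, SE 0.11, adjusted p = 0.000271), and Heatr1 from 76.4 and 74.7 to 58.2 and 54.6 CPM (-0.43, SE 0.09, adjusted p = 0.0022). Polr1b, a subunit gene of RNA polymerase I, fell by 0.42, though not without replicate 1 at 4 h (adjusted p = 0.206) or replicate 2 at 16 h (0.248). The nucleolar genes Npm1 (-0.22, adjusted p = 0.0959) and Ncl (-0.21, adjusted p = 0.12) did not pass. The number of the list that fell was 6 without replicate 1 at 4 h, 2 without replicate 2 at 16 h and 17 without replicate 1 at 16 h, and 4 by DESeq2. The medians without replicate 2 and replicate 1 at 16 h were -0.16 and -0.35. Of 77 cytosolic ribosomal protein genes 68 had a negative value (median -0.12) and 3 fell, near the background of 3.1%. Without replicate 2 at 16 h none fell, and 12 did without replicate 1 at 4 h and 8 without replicate 1 at 16 h.

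Long noncoding RNA genes were called lower more often than called higher: 48 of 1053 fell (4.56%) and 8 rose (0.76%), against 3.08% and 4.66% of 11412 protein-coding genes, and their median was -0.07. They included 7 hosts of small nucleolar RNAs, chosen for naming after their values were seen: Snhg12 (-0.85), Snhg5 (-0.62), Snhg20 (-0.57), Snhg17 (-0.54), Zfas1 (-0.43), Snhg15 (-0.43) and Snhg6 (-0.40), while Gas5 had -0.27 (adjusted p = 0.0527). Neat1, the scaffold RNA of paraspeckles and also named after its values were seen, fell from a mean of 1378 to 847 CPM (-0.71, SE 0.08, adjusted p = 3.09e-06). Dleu2, which hosts miR-15a and miR-16-1, went from 24 and 23.8 to 13.2 and 13.3 CPM (-0.86, SE 0.12, adjusted p = 3.01e-05). The number of long noncoding RNA genes that fell was 19 without replicate 2 at 16 h and 13 by DESeq2. Without replicate 2 at 16 h, 6 of the 7 host genes lost their calls (adjusted p from 0.0648 to 0.367) and Snhg17 and Neat1 did not. In GFP cells the 48 genes that fell had a median time change of -0.23 without replicate 2 at 16 h and of 0.19 with it.

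Cell cycle genes had small positive values, and the counts that rose stand against 4.22% of all tested genes. Of 34 S phase genes 33 were positive (median 0.20) and 5 rose, with Chaf1b, a histone chaperone gene (0.50, adjusted p = 0.00573), in front. Of 32 G2 and M phase genes 31 were positive (median 0.20) and 8 rose, among them the mitotic kinase gene Bub1 (0.42, adjusted p = 0.0151). The counts moved with single libraries, from 1 to 8 for S phase and from 0 (without replicate 1 at 16 h) to 8 for G2 and M phase, and Bub1 did not pass without that library (adjusted p = 0.065) or without replicate 2 at 4 h (0.216). GFP cells had medians of 0.19 and 0.16 for the same lists over the same hours in the fit that omitted GFP replicate 2 at 16 h, with 34 of 34 and 30 of 32 members positive. With all GFP libraries these medians were 0.01 and -0.06, with 18 of 34 and 14 of 32 positive.

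Interferon response genes had the highest median of the 36 lists, 0.37, with 30 of 34 positive and 7 higher, where 4.22% of all tested genes rose. Their spread between the 16 h libraries was wide: Ifit1 had 13.1 CPM in replicate 1 and 2.24 in replicate 2, after 2.83 and 1.74 CPM at 4 h, and did not pass. Without replicate 1 at 16 h the list had 2 members higher and a median of 0.11, and without replicate 2 at 16 h it had 20 and 0.60. Irf1 rose from 147 and 159 to 196 and 193 CPM (0.34, SE 0.08, adjusted p = 0.00685), though not without replicate 1 at 4 h (adjusted p = 0.0956). It overlaps Gm17334 on the other strand, which also rose (1.52, adjusted p = 0.00464). All 12 mitochondrially encoded genes tested were positive (median 0.25) and none passed. Single libraries moved this: without replicate 1 at 4 h, 9 were called higher (median 0.48), without replicate 1 at 16 h 4 were (0.21), and without replicate 2 at 4 h none was (0.13), with 11 positive in each fit except that without replicate 1 at 16 h.

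Most metabolic genes were not called. The counts of this paragraph stand against 4.22% of all tested genes that rose and 3.1% that fell. Of 34 glycolysis and hypoxia genes 2 rose and 1 fell, of 24 cholesterol synthesis genes 1 fell, of 28 unfolded protein response genes 1 rose and of 19 tRNA synthetase genes 1 rose and 1 fell. In fatty acid synthesis the desaturase genes Fads2 (26.9 and 24 to 39.6 and 47.6 CPM, 0.77, SE 0.11, adjusted p = 3.18e-05) and Fads1 (0.52, SE 0.10, adjusted p = 0.00197) were the 2 of 15 that rose; Fads1 did not pass without replicate 2 at 16 h (0.0571). None of 14 BCL2 family genes was called. Of 20 NF-kB genes 3 rose (Nfkbiz, Tnip1 and Nfkb2, by 0.35, 0.30 and 0.24). None of them passed without replicate 1 at 4 h or without replicate 2 at 16 h (adjusted p from 0.0514 to 0.277). Of 27 genes of cytokine signal feedback 1 rose and 2 fell, of 11 inflammasome genes 1 rose, of 14 ILC1 and ILC3 regulators 2 rose and 1 fell, of 28 G1 genes 2 rose and of 21 glycan enzyme genes 1 rose. With 1 library left out, none of the lists of this paragraph had more than 3 rises or 2 falls.

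**Figure D4:**
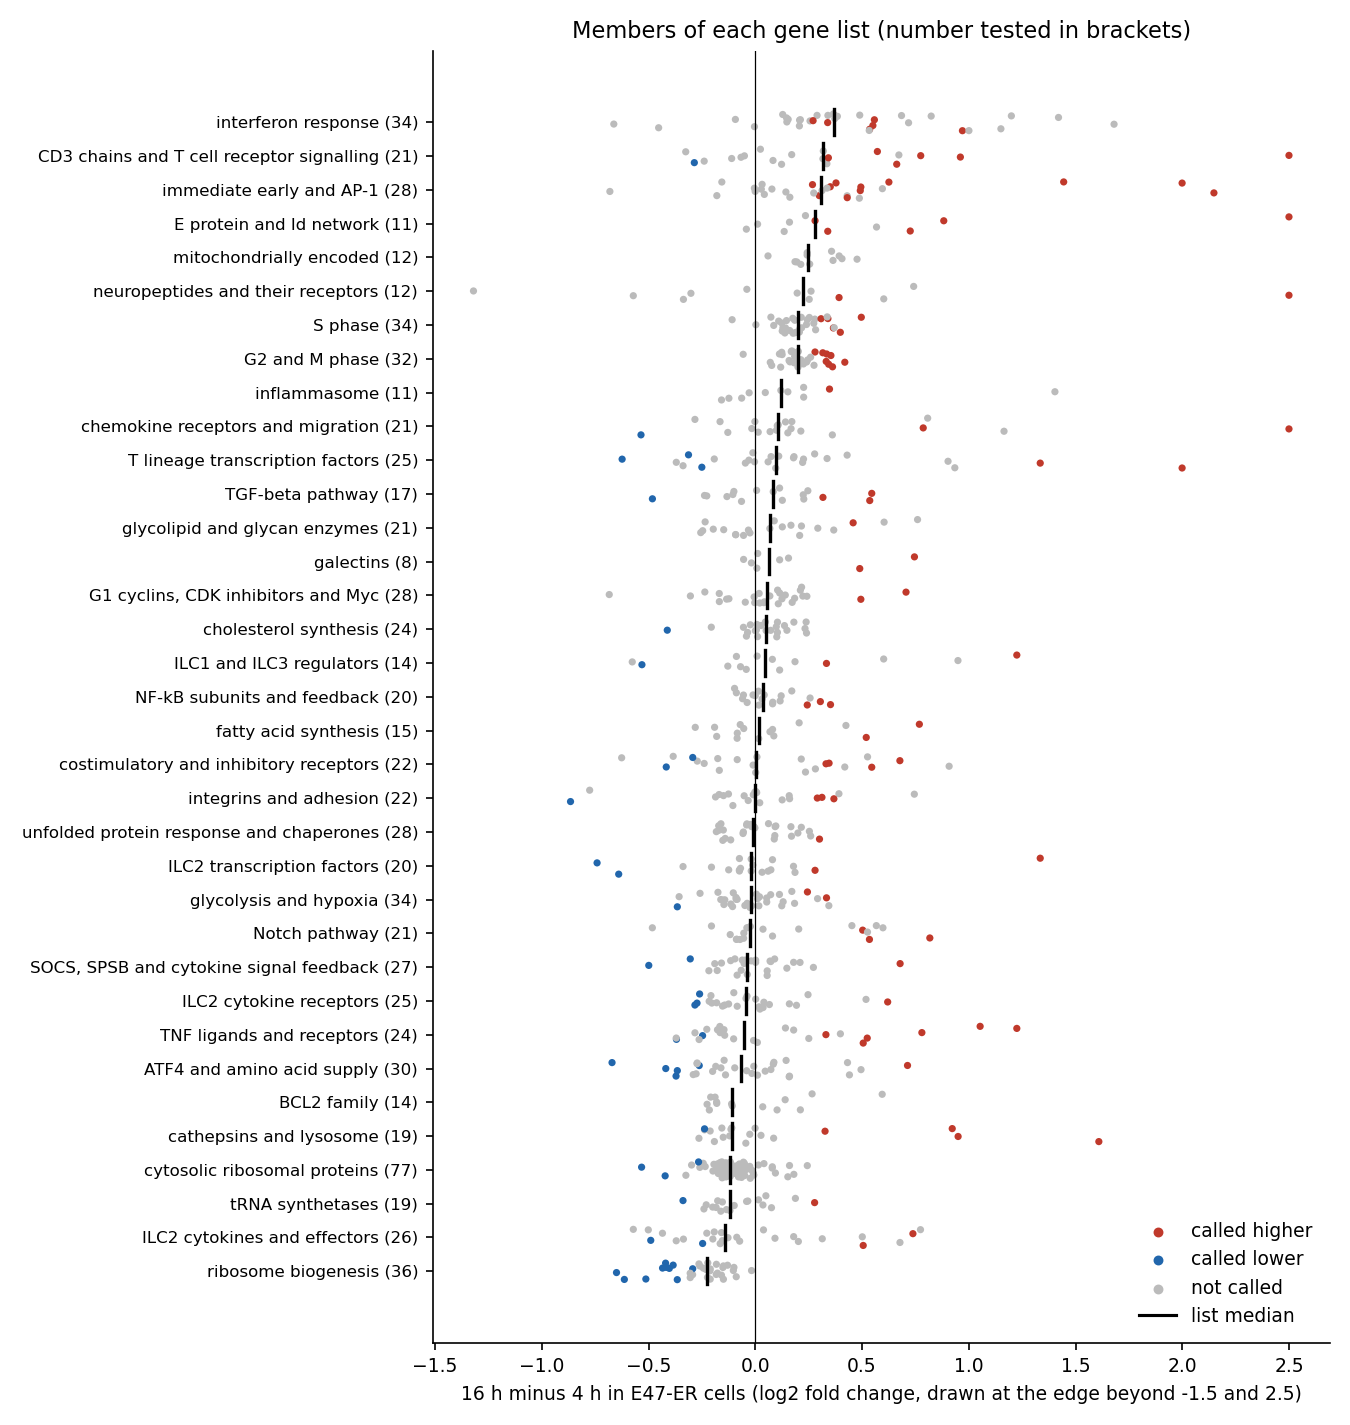
Log2 fold change from 4 to 16 h in E47-ER cells for the tested members of 35 gene lists (rows, ordered by median), 1 point per gene and a black bar at the median, with points beyond the axis drawn at its edge. Immediate early genes hold 11 red points, and all 36 ribosome biogenesis genes lie below 0.

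Whether these changes also took place in GFP cells was asked by testing the difference between the time changes, E47-ER minus GFP. With all 8 libraries no gene passed (0 of 13644, 0%; 671 at an unadjusted p under 0.05 by edgeR, 0 called and 714 by DESeq2, 0 called by limma voom), so that no change can be called particular to E47-ER cells from that fit. The genes with the smallest p were Plxnb1, Ctse and Kifc3 upward and Cd24a, Rmrp and CT010467.1 downward, each with an adjusted p of 0.699. Without replicate 2 of GFP at 16 h, 6 of 14146 genes passed (0.0424%; 3 upward and 3 downward, 0.0212% each), and the lone GFP library at 16 h was then assumed to vary like the other groups. Without replicate 1 of GFP at 16 h instead, 5124 genes passed, so the count rests on those 2 libraries. The time change within GFP cells itself was called for 0 genes with all libraries (1238 at an unadjusted p under 0.05) and for 1 gene (0.00707%), higher at 16 h, without replicate 2.

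In the fit without that replicate 2, Ctsl rose 1.80 log2 units more in E47-ER than in GFP cells (SE 0.20, adjusted p = 0.000905), where its time change was -0.21. Ptprs rose by 1.63 more (SE 0.18, adjusted p = 0.000117) and Lgals9 by 0.76 more (SE 0.13, adjusted p = 0.0137). Cd24a and Nupr1 differed by -0.87 and -0.80 (SE 0.14 each, adjusted p = 0.0137 for both), with GFP time changes of -0.01 and 0.12. The 6th gene was the pseudogene Rpl17-ps4, which is outside the rule for named genes. Cd63 (0.88, adjusted p = 0.0576), Ighm (2.20, 0.0905), Lck (0.90, 0.181) and Tcf7 (1.57, 0.237) did not pass. Gal (-1.23, SE 1.22) and Cbfa2t3 (0.96, SE 1.20) did not pass either: their GFP libraries held 0 to 0.414 CPM, so the time change in GFP cells was poorly determined.

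The signs of the time change in GFP cells depended on the same library. Of the 552 genes that rose in E47-ER cells, 42.6% had a positive time change in GFP cells with all libraries and 63.9% without replicate 2 at 16 h, against 49.3% and 57.0% of all tested genes with the same sign. Of the 405 that fell, 59.5% and 76.3% were negative in GFP cells. The sizes were smaller there, with medians of 0.06 and -0.14 without that library, against 0.46 and -0.42 in E47-ER cells. Selecting genes by their call in E47-ER cells favours such a difference in size. Ribosome biogenesis differed in sign, with a GFP median of 0.16 without that library (34 of 36 positive) and 0.12 with it (22 of 36), against -0.23 in E47-ER cells; the list's difference was not tested.

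**Figure D5:**
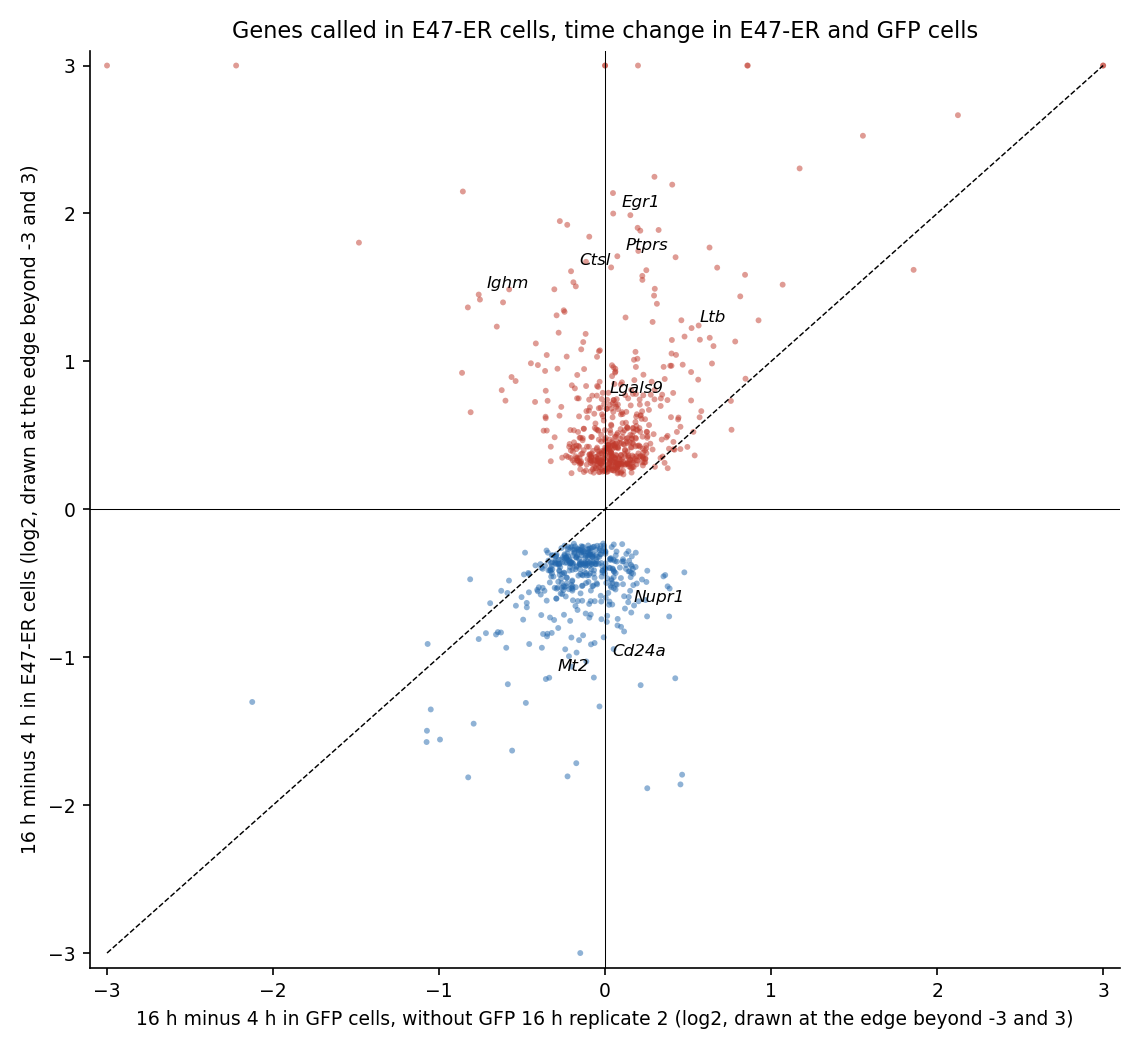
Time change (16 h minus 4 h, log2) in E47-ER cells (y axis) against GFP cells without replicate 2 at 16 h (x axis) for the 957 genes called in E47-ER cells, red where higher and blue where lower, with a dashed line where both are equal. Most points lie closer to 0 on the GFP axis than on the E47-ER axis, which the selection of genes called in E47-ER cells favours.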

How the data were processed

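RNA-seq counts per gene were used as deposited by the authors, whole numbers for 50686 mouse genes in 8 libraries. The submitters' processing notes name mm10 and DESeq2, with no role or version, while the sources used here do not give the aligner, counter, annotation or use of strand. Symbols, types and coordinates came from GENCODE M21 (GRCm38), which named 50462 of the IDs. CPM is a count divided by the library total. Libraries were grouped by their labels. The main test was edgeR 4.0.16 (R 4.3.3) quasi-likelihood on the 4 E47-ER libraries, with filterByExpr at a minimum count of 10, TMM scaling and robust dispersion, and the SE is the log2 fold change divided by the root of F. The difference from GFP cells was an interaction term in 8 libraries, and in 7 without replicate 2 of GFP at 16 h. DESeq2 1.42.0, limma 3.58.1 voom, other scalings and filters, stricter thresholds and leaving out each library were the alternatives. The scripts were tested on simulated data. Totals of 8813782 to 18677675 counts set the precision for low genes, and intervals are exact and cover counting error only.

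The 36 gene lists, the markers and the comparison were chosen with earlier results of these data known. Named genes were a standing list of E protein, ILC2 and construct genes, up to 4 called members of each list, and the leading genes of the interaction. The 12 largest changes in each direction among called genes with a mean log2 CPM of at least 3 were added. So were the 5 largest below that level, and in both sets the groups did not overlap. Predicted genes, pseudogenes and variable, diversity and joining segments were left out of the largest changes and of the interaction. Promoter windows came from the RefSeq table of GRCm38.p6.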

Additional observations from a re-analysis of the deposited data

Results flagged for a closer look

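For 5 genes the change from 4 to 16 h differed between E47-ER and GFP cells by edgeR's test of the difference itself, in the fit without replicate 2 of GFP at 16 h. The difference, E47-ER minus GFP on the log2 scale, was 1.80 for Ctsl (adjusted p = 0.000905), 1.63 for Ptprs (0.000117), 0.76 for Lgals9 (0.0137), -0.87 for Cd24a (0.0137) and -0.80 for Nupr1 (0.0137). With all 8 libraries the differences were 1.19, 2.18, 0.75, -1.04 and -1.31, each with an adjusted p of 0.699, so that they kept their direction and did not pass. Only 1 GFP library at 16 h enters the fit in which they passed.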

How the results depend on the processing

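Of 957 genes called between 16 and 4 h in E47-ER cells, DESeq2 called 388 (385 shared), the fit with 7 libraries 435 and the fit with all 8 libraries 2, an adjusted p under 0.01 left 355, and an adjusted p under 0.05 with a log2 fold change of at least 1 in size left 106. Leaving out 1 library gave 414 to 822. The labels do not say whether equal replicate numbers pair the samples, and the main test did not pair them. Across genes, the replicate differences at 4 and 16 h had r = 0.05, and a replicate block gave 1198 (955 shared). Library totals in place of TMM gave 783, of which 62.7% were higher against 57.7%. The interaction gave 0 calls, 53 with no filter on low counts and 0 to 5124 with 1 library left out. Of 123 called genes named by the rule, 123 kept their direction in every alternative that tested them (7 low genes were tested in 10 to 12 of 14). Fits without 1 E47-ER library take their spread from 1 pair of libraries, so calls kept in them do not measure stability. Genes near 0 changed sign: Esr1 was -0.0044 by DESeq2, -0.0039 with RLE scaling, -0.0010 with no filter, -0.0012 at a minimum count of 30, -0.0038 by voom, -0.0042 with the replicate block and -0.010 with 7 libraries. Leaving out 1 library gave Esr1 -0.17 to 0.14, Tcf3 -0.10 to 0.11 and Spsb1 -0.041 to 0.14. The cause was not tested.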
